A study of Homo sapiens with 6 samples.

Results

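The genes described here encode the epithelial cadherins and the core of the desmosome. They were picked by symbol, and all 10 were found among the 22152 genes of the table: the classical cadherins CDH1 and CDH3, the desmosomal cadherins DSG2, DSG3, DSC2 and DSC3, and the plaque proteins DSP, JUP, PKP1 and PKP3. They were measured in HaCaT cells, a keratinocyte line of human skin that became immortal spontaneously. Polyadenylated RNA was sequenced from 3 libraries of cells given a negative control (NC) mimic at 1 nM and 3 libraries of cells given a miR-21-3p mimic at 1 nM, all taken 48 h after transfection. A mimic is a synthetic RNA that stands in for a mature microRNA, and miR-21-3p is the passenger strand of the miR-21 precursor. The replicates are labelled as biological, and all come from this 1 cell line. The labels give polyadenylated RNA and a stranded mRNA kit, whereas the methods of the study name small RNA libraries. The values used here are of genes, and the level of the mimic was not analysed here.

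Classical cadherins hold neighbouring epithelial cells together at adherens junctions, where their tails bind catenins that connect to actin. Desmosomes use a separate set of cadherins, the desmogleins and desmocollins, whose tails bind plakoglobin (JUP) and plakophilins. Desmoplakin (DSP) then ties this plaque to keratin filaments, which gives the epidermis its resistance to mechanical stress. Basal and suprabasal keratinocytes use different desmogleins, desmocollins and plakophilins. The ratios given below compare related genes and were not tested as a measure of the epidermal layer.

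The values are read counts divided by a size factor for each library, called scaled counts below. The reads recovered from them came to about 24400000, 24500000 and 26200000 for NC mimic replicates 1, 2 and 3, and to about 24800000, 25000000 and 28000000 for miR-21-3p mimic replicates 1, 2 and 3. Of the 6 keratinocyte markers, 5 were analysed here, and KRT5, a keratin of basal keratinocytes, had the highest mean scaled count of them, 131833. The summed scaled count of these 5 markers was 215690, 203180 and 212280 in the NC mimic libraries and 218060, 224620 and 207860 in the miR-21-3p mimic libraries. Of the 5 keratinocyte markers, KRT6A, a keratin of activated keratinocytes, rose (log2 fold change 0.34 ± 0.044 (SE), limma adjusted p = 0.0021) and the other 4 did not pass the test. Of the markers of other cell types, COL1A1 for fibroblasts, PMEL for melanocytes and VWF for endothelial cells had mean scaled counts of 424, 138 and 745, none of them passed the test, and the other markers, among them all 5 of leukocytes, were not analysed here. COL1A1 was at 560, 390 and 478 in the NC mimic libraries and at 372, 378 and 364 in the miR-21-3p mimic libraries (limma adjusted p = 0.064), and was called lower with DESeq2 (adjusted p = 0.026) and without NC mimic replicate 2 (0.0018), in a range over the alternatives from 0.0018 to 0.21.

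The comparison asks whether the mimic changed the RNA of these adhesion genes. With limma, 0 of the 10 genes passed an adjusted p of 0.05, while 904 of 14795 genes tested (6.11%) were called higher with the miR-21-3p mimic and 689 (4.66%) lower, 10.8% in all. All 10 passed the filter on low values. At an unadjusted p under 0.05 there were 3 of the 10 (CDH3, DSC2 and JUP, all with higher means in the miR-21-3p mimic libraries), against 28.5% of all genes tested, and edgeR and DESeq2 on the recovered reads also called 0 of the 10. That count of 3 was 0 without NC mimic replicate 1, 1 without NC mimic replicate 3 or miR-21-3p mimic replicate 2 or 3, 2 without NC mimic replicate 2 and 3 without miR-21-3p mimic replicate 1. The median log2 fold change of the 10 genes was 0.038, against 0.0044 for all genes tested, with 6 estimates above 0 and 4 below, and it ran from 0.020 without miR-21-3p mimic replicate 2 to 0.052 without miR-21-3p mimic replicate 3. A p that misses the threshold does not show that a gene did not change, so the intervals are given with the estimates. Across the 10 genes the 95% intervals ran from a change of -9.97% to a change of 22.6%. Among the 405 genes with a mean scaled count at least that of PKP3, the lowest of the 10, 83 were called in either direction (20.5% of them), and the smallest absolute log2 fold change called among them was 0.15. The number of genes called depends on single libraries: from 1593 in all it went to 544, 2966 and 179 without NC mimic replicate 1, 2 and 3, and to 276 and 365 without miR-21-3p mimic replicate 1 and 3. Without miR-21-3p mimic replicate 2 it lay within the range of these fits.

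**Figure D1:**
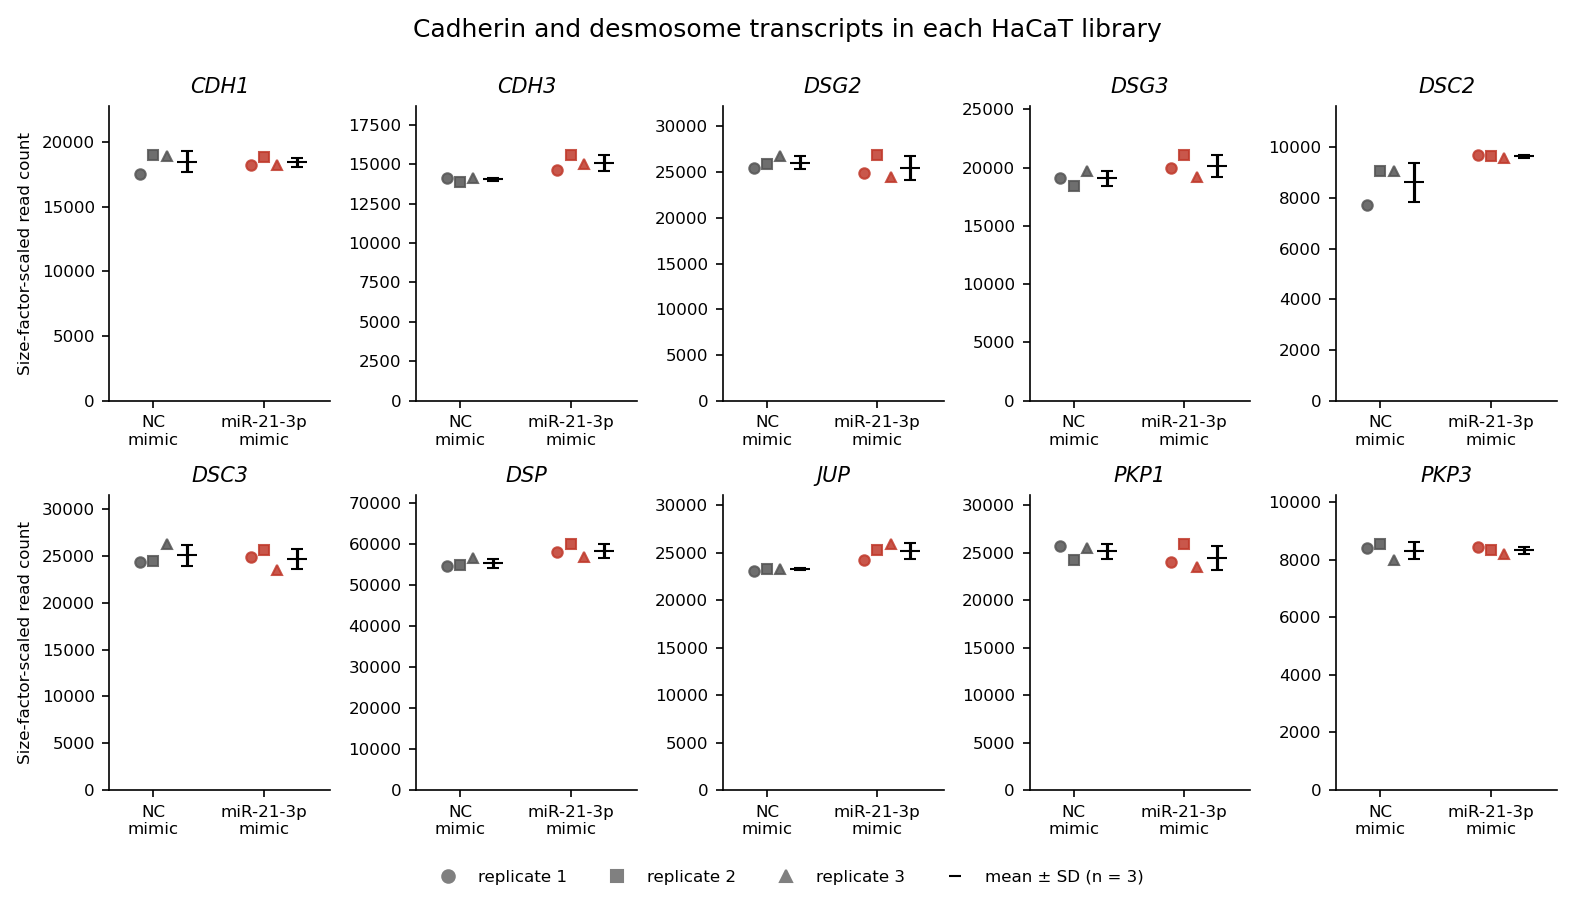
Scaled read counts (vertical axes, from 0) of the 10 genes in each library, with NC mimic libraries in grey, miR-21-3p mimic libraries in red, symbols for the replicate numbers and black bars for mean ± SD (n = 3). The group means lie close together, the widest difference being 11.9% of the NC mimic mean for DSC2, whose lowest point is NC mimic replicate 1 at 7720.

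CDH1 encodes E-cadherin, the main classical cadherin of epithelia. Its scaled count was 17500, 19000 and 18900 in the NC mimic libraries and 18200, 18800 and 18200 in the miR-21-3p mimic libraries. The miR-21-3p mimic values fall inside the NC mimic range. The log2 fold change was -0.0044 ± 0.048 (SE), with a 95% interval from -0.11 to 0.099 and a limma adjusted p of 0.96, and its sign turned when libraries were scaled by total count (0.00048). CDH3 encodes P-cadherin, which is found mainly in basal keratinocytes and hair follicles. It stood at 14100, 13900 and 14100 with the NC mimic and at 14600, 15600 and 15000 with the miR-21-3p mimic. All 3 miR-21-3p mimic values were above all 3 NC mimic values, yet the log2 fold change of 0.10 ± 0.044 (SE), 95% interval 0.0072 to 0.20, did not pass the test (limma adjusted p = 0.15). The summed scaled count of both genes was 32500 ± 781 (SD, n = 3) with the NC mimic and 33467 ± 833 (SD, n = 3) with the miR-21-3p mimic. CDH3 and CDH1 are neighbours on chromosome 16 in the RefSeq annotation (GRCh38.p14).

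The desmosomal cadherins had DSC2 as their widest difference. DSC2 encodes desmocollin 2, the desmocollin of the widest tissue distribution. Its scaled count was 7720, 9070 and 9040 in the NC mimic libraries and 9700, 9640 and 9570 in the miR-21-3p mimic libraries. The groups do not overlap, and NC mimic replicate 1 lies well below the other NC mimic libraries. The log2 fold change was 0.17 ± 0.059 (SE), 95% interval 0.039 to 0.29, with a limma adjusted p of 0.088. Without NC mimic replicate 2 the adjusted p was 0.024 and DSC2 was the only gene of the 10 called, and without NC mimic replicate 1 the log2 fold change was 0.090 with an adjusted p of 0.25. Over the 16 alternatives run, the adjusted p for DSC2 ranged from 0.024 to 0.25.

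DSC3 encodes desmocollin 3, a desmocollin of stratified epithelia concentrated in the basal layers. It measured 24400, 24500 and 26300 with the NC mimic and 24900, 25700 and 23500 with the miR-21-3p mimic, and the groups overlap (log2 fold change -0.021 ± 0.052 (SE), limma adjusted p = 0.82). DSG2 encodes desmoglein 2, the desmoglein of simple epithelia that is also made by proliferating keratinocytes. Its values of 25400, 25900 and 26800 with the NC mimic and 24900, 26900 and 24500 with the miR-21-3p mimic also overlap (log2 fold change -0.034 ± 0.051 (SE), limma adjusted p = 0.69). DSG3 encodes desmoglein 3, the autoantigen of pemphigus vulgaris. It was at 19100, 18400 and 19700 with the NC mimic and at 20000, 21100 and 19200 with the miR-21-3p mimic, where replicate 3 lies inside the NC mimic range (log2 fold change 0.076 ± 0.050 (SE), limma adjusted p = 0.34). These 4 genes lie in a single cluster on chromosome 18, in the order DSC3, DSC2, DSC1, DSG1, DSG4, DSG3 and DSG2 in the RefSeq annotation. The summed scaled count of the 4 desmosomal cadherins was 78777 ± 2726 (SD, n = 3) with the NC mimic and 79870 ± 3301 (SD, n = 3) with the miR-21-3p mimic, a difference smaller than either SD.

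Among the plaque proteins, JUP and DSP had separate groups. JUP encodes plakoglobin, which serves both desmosomes and adherens junctions. It was at 23100, 23300 and 23300 in the NC mimic libraries and at 24200, 25300 and 25900 in the miR-21-3p mimic libraries. Every miR-21-3p mimic value was higher, but the log2 fold change of 0.11 ± 0.046 (SE), 95% interval 0.013 to 0.21, did not pass the test (limma adjusted p = 0.13). DSP measured 54600, 55000 and 56700 with the NC mimic and 58200, 60100 and 56800 with the miR-21-3p mimic. These groups are separate only by the last digit that the values carry, with 56800 in miR-21-3p mimic replicate 3 beside 56700 in NC mimic replicate 3 (log2 fold change 0.074 ± 0.052 (SE), limma adjusted p = 0.37). With CDH3, DSC2, JUP and DSP, 4 of the 10 genes had all 3 miR-21-3p mimic values above all 3 NC mimic values, as did 16.5% of all genes tested, and 0 had them all below, against 14.8% of all genes tested. These shares are over genes of all levels and were not worked out for genes as abundant as these.

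PKP1 encodes plakophilin 1, which recruits desmoplakin to the plaque and is most abundant in the upper epidermis. Its scaled count was 25700, 24200 and 25500 with the NC mimic and 24000, 25900 and 23500 with the miR-21-3p mimic, and the groups overlap (log2 fold change -0.040 ± 0.052 (SE), limma adjusted p = 0.65). PKP3 encodes plakophilin 3, which is present through all living layers of the epidermis. It was at 8410, 8550 and 7980 with the NC mimic and at 8440, 8340 and 8190 with the miR-21-3p mimic, again overlapping. Its log2 fold change of 0.0022 ± 0.044 (SE) had a 95% interval from -0.092 to 0.097 and a limma adjusted p of 0.98, and its sign turned when the libraries were rescaled by TMM (-0.0021) or by recomputed RLE factors (-0.0033). The summed scaled count of the 4 plaque genes was 112113 ± 1243 (SD, n = 3) with the NC mimic and 116290 ± 2910 (SD, n = 3) with the miR-21-3p mimic. This difference is larger than either SD, and the groups do not overlap. The sum is not adjusted for length, and DSP had the largest share of it, with means of 55433 and 58367. The means of DSP and JUP were higher with the miR-21-3p mimic, that of PKP1 was lower, and those of PKP3 were 8313 and 8323. The lowest miR-21-3p mimic sum was 114390 and the highest NC mimic sum 113480, and the sums were not tested.

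**Figure D2:**
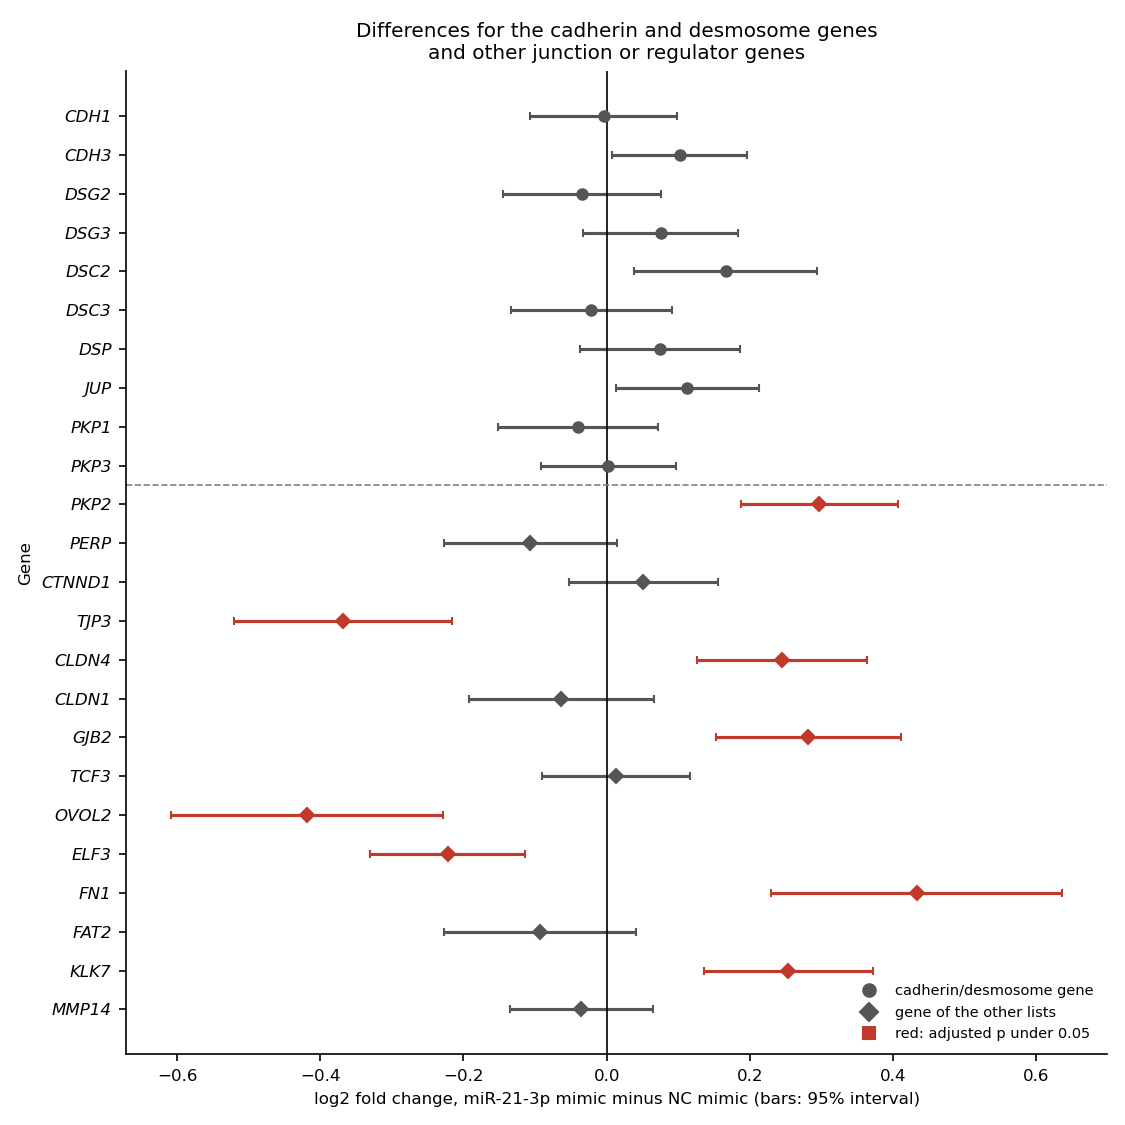
Log2 fold change (horizontal axis, miR-21-3p mimic minus NC mimic) with its 95% interval for the 10 cadherin and desmosome genes (circles, above the dashed line) and for the genes named from the other junction and regulator lists (diamonds), with red for an adjusted p under 0.05. The intervals of the 10 genes lie between -0.15 and 0.29, and the 8 red genes are all below the dashed line. The signs of CDH1 and PKP3 turn with the scaling.

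Levels of different genes can be set side by side only per length. Per kilobase of merged exons (GENCODE release 29), the order of the mean scaled counts in the NC mimic libraries was JUP (6269 ± 31.2 per kilobase, SD, n = 3), DSP, PKP1, DSG2, CDH1, DSC3, DSG3, PKP3, CDH3 and DSC2 (689 ± 61.7 per kilobase, SD, n = 3). CDH1, DSC3 and DSG3, at 3712, 3553 and 3451 per kilobase, each differed from the next of these 3 by less than the sum of the SDs, and the other neighbours in the order differed by more. With the miR-21-3p mimic the order was the same except that DSG3 passed DSC3 and CDH3 passed PKP3, by 3638 against 3501 and by 2997 against 2963 per kilobase, gaps smaller than the sums of the SDs. The order is that of the merged exons, and the longest coding transcript of each gene gave the same order in the NC mimic libraries. With the shortest annotated coding transcript it changed: DSG2, PKP1 and CDH1, at 24083, 11200 and 8930 per kilobase, stood above JUP at 7260 and DSP at 7096, and DSC2 was still lowest at 1802. Which transcripts the cells made was not analysed here. The annotation behind the deposited counts is not given in the sources used here, so these levels are approximate.

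**Figure D3:**
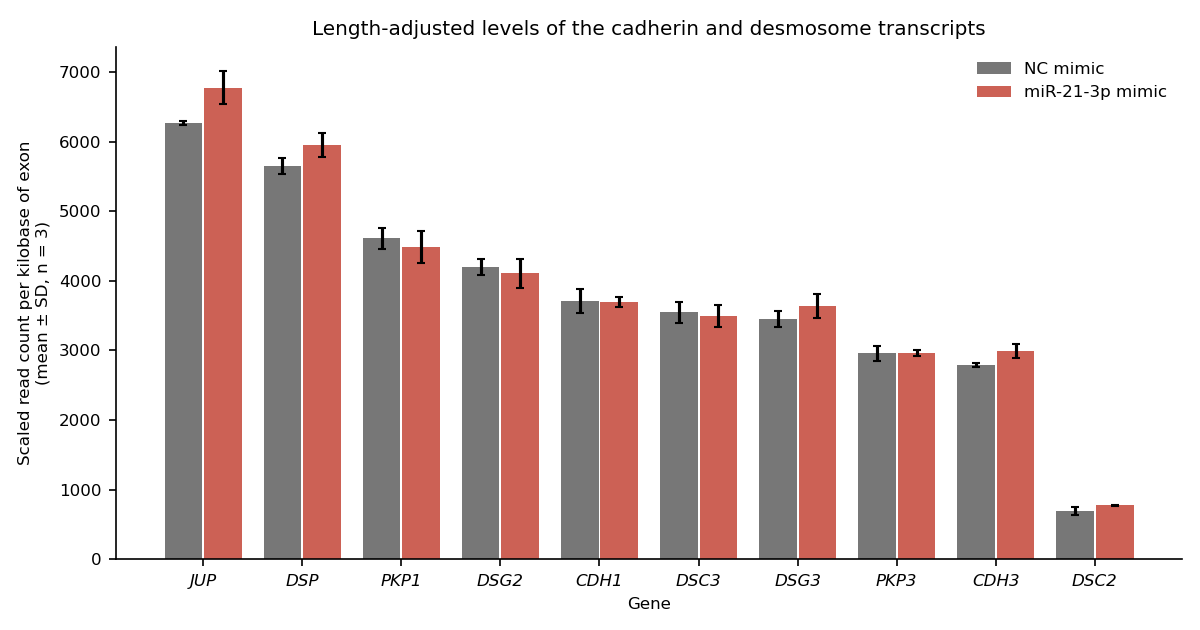
Mean scaled read count per kilobase of merged exon (vertical axis, from 0) for the 10 genes, ordered by the NC mimic level, with NC mimic in grey, miR-21-3p mimic in red and error bars for the SD (n = 3). With this length JUP and DSP stand highest in both groups, and DSC2 is lowest at 689 and 771 per kilobase, while with the shortest coding transcripts DSG2, PKP1 and CDH1 pass JUP and DSP.

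Ratios between related genes within a library do not depend on the scaling. The ratio of DSG2 to DSG3 was 1.33, 1.41 and 1.36 in the NC mimic libraries and 1.245, 1.27 and 1.28 in the miR-21-3p mimic libraries. All 3 miR-21-3p mimic ratios were lower, with a difference of -0.11 on the log2 scale (two-sided exact permutation p = 0.10, the smallest that 3 against 3 libraries can give). The ratio of DSC2 to DSC3 was 0.316, 0.370 and 0.344 with the NC mimic and 0.390, 0.375 and 0.407 with the miR-21-3p mimic. All 3 miR-21-3p mimic ratios were higher, by 0.19 on the log2 scale (two-sided exact permutation p = 0.10). The ratio of CDH3 to CDH1 was 0.806, 0.732 and 0.746 with the NC mimic and 0.802, 0.830 and 0.824 with the miR-21-3p mimic. Here NC mimic replicate 1 lies above miR-21-3p mimic replicate 1, so the groups overlap (log2 difference 0.11, two-sided exact permutation p = 0.20). Adjusted over these 3 ratios by Benjamini-Hochberg, the permutation p-values were 0.15, 0.15 and 0.20, and none could have passed 0.05 with this number of libraries.

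**Figure D4:**
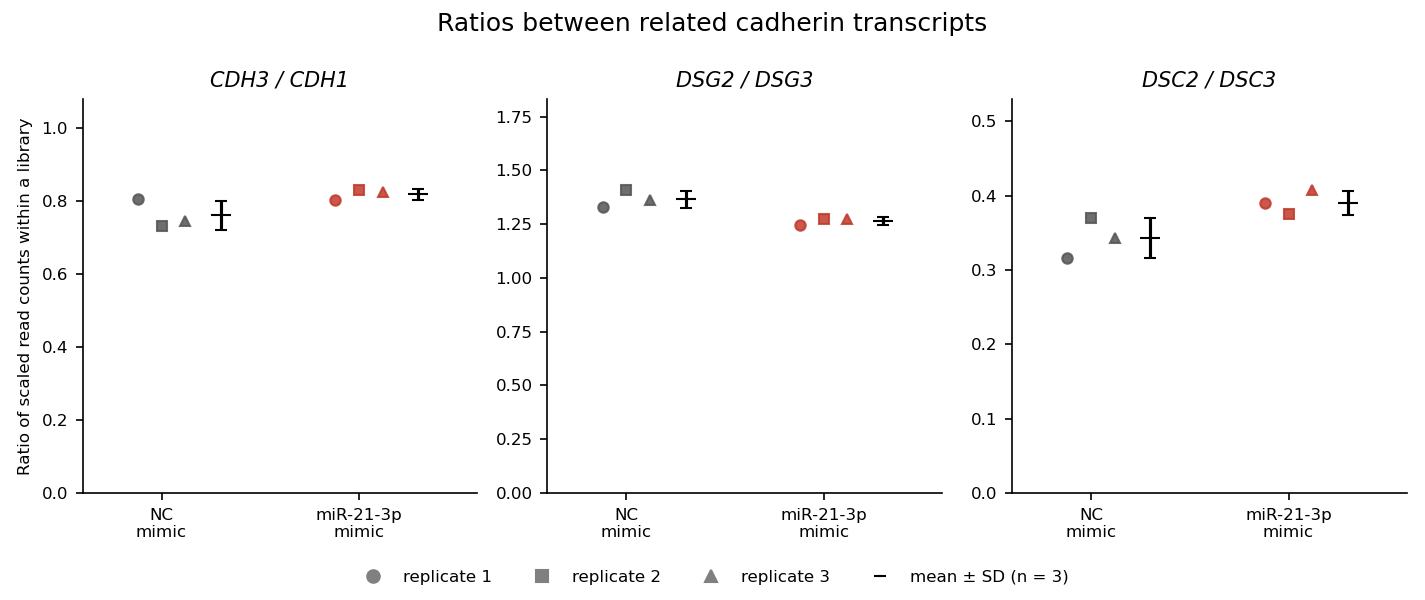
Ratio of the scaled read counts of related cadherin genes within each library (vertical axes, from 0), by group, with symbols for the replicate numbers and black bars for mean ± SD (n = 3). The ratio of DSG2 to DSG3 is lower and that of DSC2 to DSC3 higher in all 3 miR-21-3p mimic libraries, while the CDH3 to CDH1 ratios overlap.

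The other desmosome genes held 1 call in 6. PKP2, the plakophilin of simple epithelia and heart, was at 2090, 2110 and 2030 in the NC mimic libraries and at 2610, 2650 and 2400 in the miR-21-3p mimic libraries. It rose by a log2 fold change of 0.30 ± 0.050 (SE, limma adjusted p = 0.0071), and without NC mimic replicate 3 the adjusted p was 0.052. PERP, a membrane protein of desmosomes and the highest of this list by scaled count, did not pass the test (log2 fold change -0.11 ± 0.056 (SE), limma adjusted p = 0.23), and DSG4, DSC1, DSG1 and PKP4 did not either. DSG1 and DSC1, desmosomal cadherins of the differentiating layers, had low scaled counts, from 25 to 50.3 and from 55.2 to 88.1, a feature singled out after the values were seen. DSG4, a desmoglein of the same list, stood far higher, from 3510 to 3910, so low counts were not shared by all desmosomal cadherins of the list. The median log2 fold change of the list was 0.15, which lies between the estimates of PKP4 (0.050) and DSC1 (0.25). That of DSC1 ran from 0.13 to 0.38 without single libraries, so this median depends on single libraries.

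None of the 10 adherens junction catenins, nectins and their partners passed the test, 7 with estimates above 0 and 3 below, with a median log2 fold change of 0.062. The highest of them by scaled count, CTNND1, encodes p120 catenin, which stabilises cadherins at the membrane, and had a log2 fold change of 0.051 ± 0.048 (SE, limma adjusted p = 0.51). Of 11 tight junction genes, 1 rose and 1 fell, with a median of -0.0061. CLDN4, a claudin of the paracellular barrier, rose from 8340, 9250 and 8330 with the NC mimic to 9710, 10200 and 10800 with the miR-21-3p mimic (log2 fold change 0.25 ± 0.055 (SE), limma adjusted p = 0.018). TJP3, the scaffold protein ZO-3, fell from 4050, 3500 and 3870 to 2920, 3250 and 2690 (log2 fold change -0.37 ± 0.070 (SE), limma adjusted p = 0.011). CLDN1, the highest of the list by scaled count, had a log2 fold change of -0.063 ± 0.060 (SE, limma adjusted p = 0.52). Of 6 gap junction genes analysed, GJB2, which encodes connexin 26, rose from 642, 613 and 626 to 747, 790 and 751 (log2 fold change 0.28 ± 0.060 (SE), limma adjusted p = 0.015). The other 5 did not pass the test, and the median of the list was 0.024.

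Among genes that regulate cadherins, 3 of 8 repressors were analysed here, the other 5 not, and 0 were called by limma at a median log2 fold change of 0.013. The highest by scaled count, TCF3, had a log2 fold change of 0.013 ± 0.048 (SE, limma adjusted p = 0.89). SNAI2, the repressor SLUG, is given although it fell outside the rule for named genes and was chosen after its values were seen. It was at 769, 625 and 785 with the NC mimic and at 588, 623 and 564 with the miR-21-3p mimic (log2 fold change -0.29 ± 0.086 (SE), limma adjusted p = 0.051). It passed the threshold when rescaled by TMM (limma adjusted p = 0.049) or RLE (0.048), with edgeR (0.041) and DESeq2 (0.023) on the recovered reads, and without NC mimic replicate 2 (0.0017), in a range over the alternatives from 0.0017 to 0.20. Of 11 epithelial transcription factors, 2 fell and 0 rose, with a median of 0.045. OVOL2, a factor that maintains epithelial identity, fell from 655, 546 and 599 to 484, 458 and 404 (log2 fold change -0.42 ± 0.088 (SE), limma adjusted p = 0.015). ELF3, an epithelial ETS factor, fell from 5330, 5010 and 5390 to 4380, 4760 and 4350 (log2 fold change -0.22 ± 0.050 (SE), limma adjusted p = 0.019). The other 9 did not pass the test.

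Of the 8 mesenchymal and switch cadherin genes analysed, FN1, which encodes the matrix protein fibronectin and is no cadherin, rose from 926, 1190 and 1020 to 1550, 1240 and 1440 (log2 fold change 0.43 ± 0.094 (SE), limma adjusted p = 0.016). The other 7 did not pass, FAT2, the highest by scaled count, among them (log2 fold change -0.093 ± 0.062 (SE), limma adjusted p = 0.35), and the median was 0.0091. CDH5, which encodes VE-cadherin, the classical cadherin of endothelial cells, was on none of the lists and was singled out after its values were seen. It fell from 477, 286 and 393 to 165, 178 and 122 (log2 fold change -1.30 ± 0.17 (SE), limma adjusted p = 0.0026), with no overlap between the groups, and was called without each library in turn and under the 10 other alternatives (adjusted p from 7.9e-12 to 0.024). Of the 11 genes tested that carry a CDH symbol, CDH5 was the 1 called, a share near the 10.8% called of all genes tested. The endothelial marker VWF did not pass the test. Of 9 genes of cadherin shedding and turnover, KLK7, a protease that cleaves corneodesmosomes in the outermost epidermis, rose from 3070, 3310 and 3360 to 3670, 4120 and 3830 (log2 fold change 0.25 ± 0.054 (SE), limma adjusted p = 0.015). MMP14, the highest of that list by scaled count but not per kilobase, had a log2 fold change of -0.035 ± 0.046 (SE, limma adjusted p = 0.65), and the median was 0.0080. Over these 8 lists, 8 of 64 genes analysed were called (12.5%), 5 higher and 3 lower, a share near the 10.8% of all genes tested. Each of the 8 calls ended when certain libraries were left out, although over all these fits the log2 fold changes stayed between 80.7% and 122% of those with all 6 libraries. NC mimic replicate 3 ended all 8, with adjusted p from 0.052 for PKP2 to 0.096 for ELF3. NC mimic replicate 1 ended those of CLDN4, OVOL2, ELF3, FN1 and KLK7 (adjusted p from 0.053 to 0.067), miR-21-3p mimic replicate 1 those of TJP3, GJB2, ELF3 and FN1 (0.057 to 0.096), and miR-21-3p mimic replicate 3 those of CLDN4, GJB2, OVOL2, ELF3, FN1 and KLK7 (0.051 to 0.078).

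The genes whose profile over the 6 libraries was most like the mean log2 level of the members of each role were taken from 10124 genes, as a description only. They were PAIP2 and PLEKHA5 for the classical cadherins (Pearson r 0.999 and 0.990), CAST and ARL6IP5 for the desmosomal cadherins (Pearson r 0.996 and 0.994), and SERPINB1 and SMAP1 for the plaque proteins (Pearson r 0.987 and 0.987). The 6 libraries include both groups. None of these 6 genes passed the test between groups (limma adjusted p from 0.11 to 0.56).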

How the data were processed

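Polyadenylated RNA of 6 HaCaT libraries was analysed, grouped by the transfection label. Per the submitters' processing notes, the authors used bcl2fastq 2.18.12, cutadapt 1.15, TopHat2 2.1.1, featureCounts of Subread 1.5.2 and DESeq2; the genome build, and whether the counting used strand, are not given in the sources used here, so reads of overlapping antisense genes cannot be told apart. The deposited signal is each gene's read count divided by 1 size factor per library, written to 3 significant digits, which rounds higher values. All of the 23192 values above 0 and under 100 (100%) were whole multiples of a library's step within 0.1 reads; they are 24.1% of the values above 0, and reads of higher values are approximate. The comparison was planned for raw counts; for scaled values limma 3.58.1 (R 4.3.3) was used on log2(value + 1) with a mean-variance trend, for genes with a value of 10 or more in at least 3 libraries, with Benjamini-Hochberg adjustment over 14795 genes and a threshold of 0.05. Fold changes on this scale understate changes of low genes. On recovered reads, edgeR 4.0.16 called 1638 genes and DESeq2 1.42.0 called 1606. Ratios were tested by two-sided exact permutation. Each program was tested on simulated data with changes larger than those of the members, so that test does not cover differences of their size. Replicates of a group differed by more than sampling noise. The members and lists were chosen with earlier results of these data known. Named genes were all members and, in each other list, the called genes (the 4 with the largest change where there were more) and the most abundant gene by mean CPM, not adjusted for length, some of which are not reported here; for likeness, the 2 genes with the highest Pearson r per role among those with a mean CPM of at least 10. Older symbols were matched by gene ID. Alternatives covered scaling, test, filter, pseudocount, replicate block and leaving out each library; edgeR, TMM and the pseudocounts were added after seeing the data.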

Additional observations from a re-analysis of the deposited data

How the results depend on the processing

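The count of 0 among the 10 cadherin and desmosome genes was the same under the other scalings, filters, pseudocounts, the replicate block, edgeR and DESeq2, where their lowest adjusted p ranged from 0.083 to 0.12. Leaving out single libraries gave 0 to 1 of the 10. The number of genes called went from 179 to 2966 in those fits (98 to 1632 higher, 81 to 1334 lower), which have fewer samples; the cause of the spread was not tested. With the replicate number as a block, 1193 genes were called (681 higher, 512 lower), and 1 of the 10 had an unadjusted p under 0.05. Same-numbered libraries did not deviate together (r = -0.077, -0.30 and -0.32, and 0 of 3 NC mimic libraries correlated best with their own number). The block leaves the log2 differences of the ratios as they are by construction (0.11 for CDH3 to CDH1, -0.11 for DSG2 to DSG3, 0.19 for DSC2 to DSC3), and the exact permutation p over sign changes of the 3 pairs was 0.50, 0.25 and 0.25, where 0.25 is the smallest possible. Estimates near 0 changed sign, the cause not tested: PKP3 was -0.0033 with RLE, -0.0038 with DESeq2, -0.0026 with edgeR and -0.0021 with TMM; CDH1 was 0.00048 with total counts. Without single libraries the log2 fold change ran from -0.043 to 0.017 for CDH1, -0.051 to 0.014 for DSC3, -0.027 to 0.023 for PKP3, -0.015 to 0.031 for TCF3, -0.014 to 0.064 for DSG4, -0.017 to 0.071 for KRT5, -0.0030 to 0.18 for PMEL and -0.044 to 0.033 for VWF. Of the members that kept their sign, it ran from -0.076 to -0.0081 for DSG2, 0.040 to 0.11 for DSG3, -0.081 to -0.011 for PKP1, 0.090 to 0.21 for DSC2, 0.077 to 0.12 for CDH3, 0.053 to 0.094 for DSP and 0.091 to 0.14 for JUP. Of other genes not called, it ran from -0.12 to -0.017 for CLDN1, -0.068 to -0.0076 for MMP14, -0.15 to -0.041 for FAT2, -0.14 to -0.048 for PERP and 0.023 to 0.068 for CTNND1. The difference of the ratios kept its direction without any single library, from 0.078 to 0.15 for CDH3 to CDH1, from -0.13 to -0.088 for DSG2 to DSG3 and from 0.13 to 0.24 for DSC2 to DSC3. For the 41 named genes, the alternatives that kept all libraries ended no call and made 5, SNAI2 lower with RLE, TMM, edgeR and DESeq2 and COL1A1 lower with DESeq2. The lowest scaled count of the 10 genes in any library was 7720.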
